A study of Mus musculus with 2 samples.

Results

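Genes known from the fibroblasts of the meninges were followed in brain RNA of mice without interleukin-18. The 10 genes were chosen by name and comprised Col1a1, Col1a2, Col3a1, Dcn, Lum, Mgp, Fmod, Slc13a4, Slc6a13 and Aldh1a2. All 10 were measured, out of 15737 named genes measured on the arrays. Male C57Bl/6 N mice were either Il18+/+ or Il18-/-, aged 12 weeks, and no treatment is named. Each genotype was represented by a single array, hybridised with a pool of RNA from 7 mice, which makes 1 sample per group. Interleukin-18 is an inflammatory cytokine, and the labels give neither the deleted part of the gene nor a cell-type restriction. The labels name the hippocampus as the tissue, while the extraction protocol and the design text also name the prefrontal cortex. All 15 hippocampal neuron markers and all 12 neocortical layer markers checked were well above background on both arrays, which does not tell the regions apart.

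The meninges are the membranes around the brain, and their fibroblasts lay down the collagen sheets of the pia, arachnoid and dura. These cells secrete fibrillar collagens and the small leucine-rich proteoglycans that bind them, carry transporters at the border between blood, cerebrospinal fluid and brain, and are a source of retinoic acid. Fibroblasts of the same kind lie around larger brain vessels and in the stroma of the choroid plexus, so pieces of dissected brain can hold them in varying amounts. In pooled bulk RNA fewer cells of a type and less RNA per cell cannot be told apart.

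Each of the 10 genes was read by 1 probe on 1 spot per array. The signal was well above background for every gene on both arrays, and none of these spots was marked as an outlier or saturated. A level is the log2 of the signal over the array's 75th percentile, so 0 stands for that percentile. Differences are Il18-/- minus Il18+/+. No test was possible with 1 pool per genotype, and having 2 arrays in all limits the precision. The error given is that of the scanner software for the 2 spots combined. It is the software's own estimate, was nearly the same for all 10 genes at 0.20 to 0.22, and does not cover the spread between animals. Repeated spots had a smaller median SD of 0.07 for the difference, over 189 probes with at least 10 spots.

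Of the 10 genes, 2 were at least 1.5-fold lower in Il18-/-, namely Mgp and Slc13a4, and 0 were at least 1.5-fold higher. Scaling to spike-in controls made the first count 4, by adding Dcn and Col1a1. Under that scaling 9.74% of all measured genes were lower by 1.5-fold. Over all measured genes 2.57% were lower and 1.68% were higher by that size. At 2-fold there were 0 in either direction, against 0.451% of all measured genes lower and 0.642% higher. By any size 7 of the 10 genes were lower and 3 were higher, against 47.4% and 52.6% of all measured genes. The median difference of the 10 genes was -0.16, and that of all measured genes was 0.01. The 8 genes below 1.5-fold ranged from -0.37 to 0.11, and 6 of these 8 differed by less than 1 scanner error. The genes of the collagen matrix and those of transport and retinoic acid synthesis are described in turn below, each with its value in both genotypes.

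**Figure D1:**
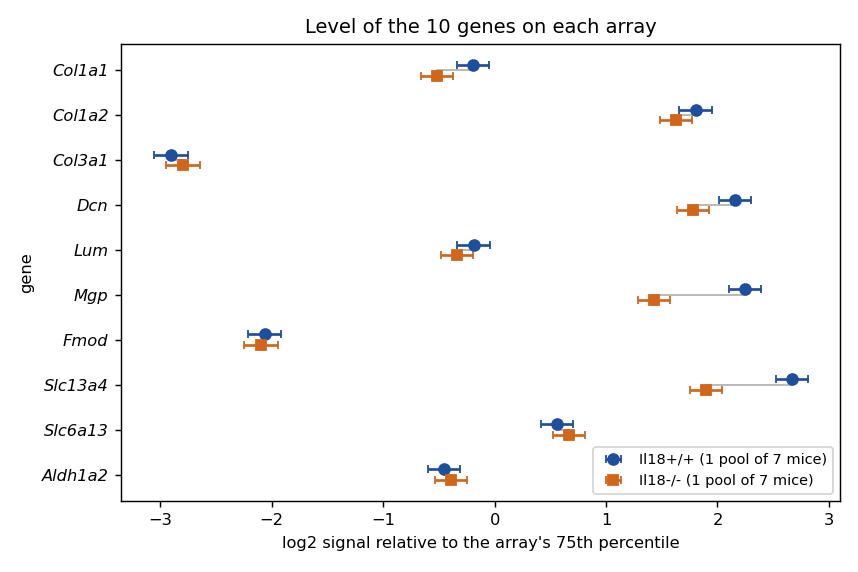
Level of each of the 10 genes on the 2 arrays, as log2 signal relative to the array's 75th percentile, with circles for Il18+/+ and squares for Il18-/- (1 pool of 7 mice each). Bars are the scanner software's error of the spot. Mgp and Slc13a4 are apart by more than their bars, as are Dcn and Col1a1 by less, while the bars of Col1a2, Col3a1, Lum, Fmod, Slc6a13 and Aldh1a2 overlap. Levels of different genes come from different probes and are not comparable with each other.

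Mgp encodes matrix Gla protein, a secreted inhibitor of calcification made by fibroblasts and vascular cells. Its signal was 3289 intensity units in Il18+/+ and 1910 in Il18-/-. On the log2 scale the level was 2.24 in Il18+/+ and 1.43 in Il18-/-. The difference was -0.81 with a scanner error of 0.20, or 1.76-fold lower. Mgp was number 144 from the lowest among the 15737 measured genes, and it had the lowest difference of the 10.

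Slc13a4 encodes a sodium-coupled sulfate transporter known from the meninges and from the choroid plexus. Its signal was 4409 intensity units in Il18+/+ and 2641 in Il18-/-. The level was 2.67 in Il18+/+ and 1.90 in Il18-/-. The difference was -0.77 with a scanner error of 0.20, or 1.71-fold lower, and it ranked number 169 from the lowest of all measured genes. Of 12 alternatives tried, 6 cannot change a gene read by 1 spot that passes every filter, and return the same values. Under the 6 that can, which are scalings and background corrections, Mgp and Slc13a4 were at least 1.5-fold lower.

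Choroid plexus markers were lower on the same array. Of 30 measured markers of the choroid plexus epithelium 28 were lower, and 25 (83.3%) were past 1.5-fold, against 2.57% of all measured genes. The median of the 30 markers was -1.02. Their summed signal was 413 times the 75th percentile in Il18+/+ and 217 times in Il18-/-. Ttr, the transthyretin gene (levels of 8.01 and 7.05), and Enpp2 (6.59 and 5.57) had the highest levels of the list and weigh most in that sum. Cldn1 and Atp4a, also on that list, were not well above background on at least 1 array. The genes with the greatest difference on the list were Cldn2 for a claudin (3.13-fold), F5 for a clotting factor (2.93-fold), Aqp1 for a water channel (2.91-fold) and Col8a1 for a short-chain collagen (2.74-fold), each lower in Il18-/-. With normexp background correction Col8a1 was 1.70-fold lower. That correction was run with an offset of 50 intensity units, which by itself shrinks the folds of dim genes. The part of choroid plexus tissue in the differences of Mgp and Slc13a4 was not tested.

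The 3 collagen genes did not reach 1.5-fold and did not share a direction. Col1a1 and Col1a2 encode the chains of type I collagen, the main fibrillar collagen of connective tissue. The level of Col1a1 was -0.19 in Il18+/+ and -0.52 in Il18-/-, a difference of -0.33 with a scanner error of 0.20. The level of Col1a2 was 1.80 in Il18+/+ and 1.63 in Il18-/-, a difference of -0.17 that is smaller than its error of 0.20. Col3a1 encodes type III collagen, which forms fibrils together with type I. Its level was -2.90 in Il18+/+ and -2.79 in Il18-/-, a difference of 0.11 with an error of 0.22. The Col3a1 difference turned to -0.17 with scaling to spike-in controls, which moved the median of all measured genes from 0.01 to -0.27.

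The 3 small leucine-rich proteoglycan genes were lower by different amounts. Dcn encodes decorin, which binds collagen fibrils and limits their width. Its level was 2.15 in Il18+/+ and 1.78 in Il18-/-, a difference of -0.37 or 1.29-fold lower, with a scanner error of 0.20. Lum encodes lumican, which also regulates fibril assembly, and its level was -0.19 in Il18+/+ and -0.34 in Il18-/-, a difference of -0.15 with an error of 0.20. Fmod encodes fibromodulin, a further collagen-binding member. Its intensity was 166.3 in Il18+/+ and 166.2 in Il18-/-, and its difference of -0.03 was the nearest to 0 among the 10 genes. It lay above 0 in 3 of the 6 alternatives that can change it, the highest being 0.03.

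Slc6a13 and Aldh1a2 complete the set. Slc6a13 encodes the GABA transporter GAT2, found in the leptomeninges and in liver and kidney. Its level was 0.56 in Il18+/+ and 0.67 in Il18-/-, a difference of 0.11 with an error of 0.20. Of the 2 transporter genes of the set, Slc13a4 was thus 1.71-fold lower, while Slc6a13 was 1.08-fold higher, by less than its scanner error. Aldh1a2 encodes retinaldehyde dehydrogenase 2, which makes retinoic acid. Its level was -0.45 in Il18+/+ and -0.39 in Il18-/-, a difference of 0.06 with an error of 0.20. Under the spike-in scaling Slc6a13 turned to -0.17 and Aldh1a2 to -0.22, and Aldh1a2 was below 0 in 3 of the 6 alternatives that can change it.

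Liver markers were higher on the Il18-/- array, where Slc6a13 is a gene that liver also expresses. Of 14 measured liver markers 12 were at least 1.5-fold higher, against 1.68% of all measured genes. The median of the 14 markers was 2.52. The median was 1.76 with normexp background correction and 2.02 with none, and a stricter filter on dim probes left 8 measured, 7 of them higher by that size. Alb, the albumin gene, was 12.5-fold higher, Mup20, a major urinary protein gene of a family of near-identical copies, was 12.3-fold higher, Ahsg was 8.67-fold higher and Fgb was 7.95-fold higher. With normexp, whose offset shrinks the folds of dim genes, these folds were 3.53 for Alb, 5.33 for Mup20, 4.68 for Ahsg and 3.33 for Fgb. The summed signal of the list was 51.1 times the 75th percentile in Il18+/+ and 48.8 times in Il18-/-, since it includes Trf, the transferrin gene that oligodendrocytes express, with levels of 5.60 and 5.21. The 2 measured markers that were lower were Trf (1.31-fold) and Fga (1.18-fold, at dim levels of -5.06 and -5.30). Apoa1, also on the list, was not well above background on at least 1 array. The part of liver RNA in the Slc6a13 value was not tested.

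**Figure D2:**
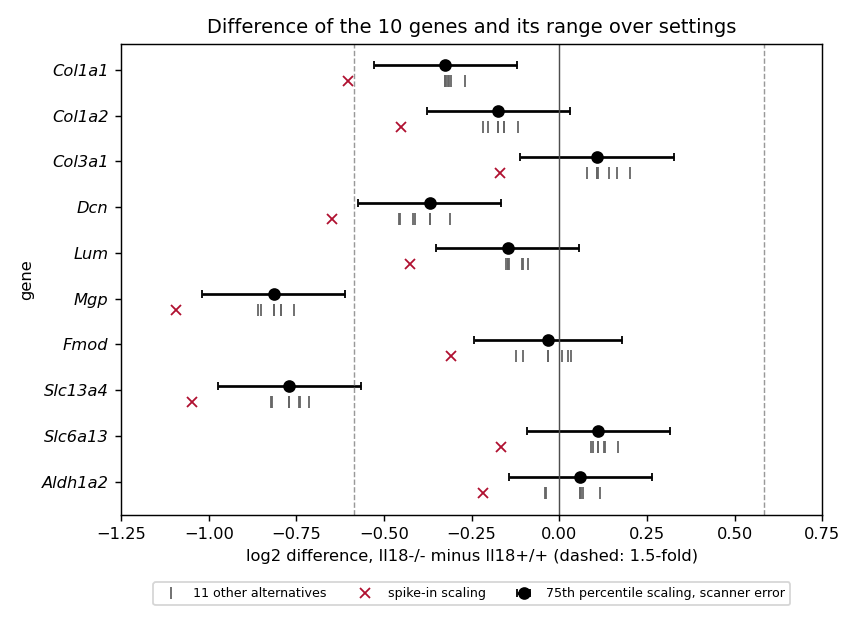
Log2 difference, Il18-/- minus Il18+/+, of each of the 10 genes (points, with the combined scanner error as bars) and its value under 12 alternatives (ticks, with a cross for spike-in scaling), of which 6 equal the point by construction. Dashed lines mark 1.5-fold. Mgp and Slc13a4 lie beyond the lower line under the 6 that can move them, and spike-in scaling also takes Dcn to -0.65 and Col1a1 to -0.60.

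**Figure D3:**
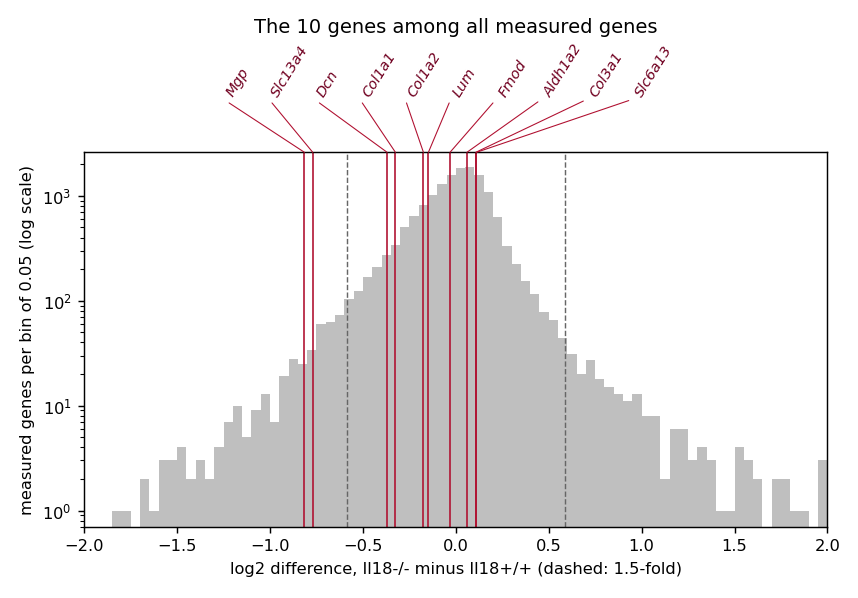
Histogram of the log2 differences of the 15737 measured genes in bins of 0.05, with a log axis for the number of genes and red lines at the 10 meningeal fibroblast genes. Dashed lines mark 1.5-fold, and 42 genes beyond 4-fold lie outside the plot. Mgp and Slc13a4 lie in the lower tail, while the other 8 lie between -0.37 and 0.11.

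Local unevenness of the glass was looked at around each spot. Among the 18 nearest spots of each gene, 8 to 15 were usable, well above background on both arrays. The median difference of these neighbours lay between -0.13 and 0.09 for the 10 genes. Around Mgp it was 0.05 over 9 spots, with 1 of them at least 1.5-fold higher and 0 lower. Around Slc13a4 it was 0.06 over 15 spots, with 0 beyond 1.5-fold in either direction. No usable spot beside Mgp or Slc13a4 was lower by 1.5-fold.

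The set was placed in the genome by the order of genes in RefSeq of GRCm38.p6, since the array design refers to another build. On chromosome 6 lie 4 of the 10 genes, namely Col1a2, Slc13a4, Slc6a13 and Mgp. Dcn and Lum are direct neighbours, followed by Kera and Epyc of the same proteoglycan family, which were not well above background on at least 1 array. Col3a1 lies next to Col5a2, which encodes a minor chain of the same fibrils and differed by -0.35. Slc6a13 lies next to Slc6a12, which encodes the betaine and GABA transporter BGT1 and differed by -0.27. The genes on either side of Mgp, Art4 and Erp27, differed by -0.20 and 0.08. Aldh1a2 shares chromosome 9 with Il18, with 191 measured protein-coding genes between them. Il18 itself went from 1.37 in Il18+/+ to -0.12 in Il18-/-, or 2.80-fold lower, by a probe whose place relative to the deletion is not known here.

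The start regions of 6 of the 10 genes were given in the RefSeq table used here, as 8 windows of 300 bases. The windows of Slc13a4, which was lower, and of Col1a2 and Aldh1a2, which did not reach 1.5-fold, are shown because they contrast a gene of each outcome and role. Slc13a4 is read from chr6:35308077-35308376 on the minus strand, Col1a2 from chr6:4505368-4505667 on the plus strand and Aldh1a2 from chr9:71215539-71215838 on the plus strand (GRCm38.p6). Each runs from 250 bases before the start to 50 after, 5′ to 3′ along the gene. Capitals mark matches, on either strand, to the TATA box as TATAAA, the CCAAT box, the GC box as GGGCGG and the retinoid receptor half-site as AGGTCA, and no 2 matches overlap in these windows.
Slc13a4: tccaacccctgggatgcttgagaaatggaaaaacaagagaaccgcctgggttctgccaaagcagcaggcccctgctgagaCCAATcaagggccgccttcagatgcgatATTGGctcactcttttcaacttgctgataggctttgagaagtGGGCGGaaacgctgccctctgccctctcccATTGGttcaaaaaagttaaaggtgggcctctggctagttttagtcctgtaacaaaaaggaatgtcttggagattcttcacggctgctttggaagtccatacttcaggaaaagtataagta
Col1a2: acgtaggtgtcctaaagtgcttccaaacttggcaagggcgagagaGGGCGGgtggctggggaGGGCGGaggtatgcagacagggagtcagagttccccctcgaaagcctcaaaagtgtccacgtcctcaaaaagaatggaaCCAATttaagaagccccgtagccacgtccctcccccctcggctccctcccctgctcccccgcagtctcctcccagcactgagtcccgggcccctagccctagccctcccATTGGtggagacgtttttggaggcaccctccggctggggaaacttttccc
Aldh1a2: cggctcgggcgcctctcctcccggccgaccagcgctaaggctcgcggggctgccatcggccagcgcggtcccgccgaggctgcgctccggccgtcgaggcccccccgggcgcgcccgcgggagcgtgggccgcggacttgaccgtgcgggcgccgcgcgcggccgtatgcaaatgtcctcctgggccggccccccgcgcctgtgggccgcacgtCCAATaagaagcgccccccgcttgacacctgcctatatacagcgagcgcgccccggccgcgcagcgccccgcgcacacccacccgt

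The Slc13a4 window held 3 matches to CCAAT and 1 to GGGCGG. That of Col1a2 held 2 to CCAAT and 2 to GGGCGG, and that of Aldh1a2 held 1 to CCAAT. Over all 32851 windows of this length in the table, 37.4% held CCAAT, 35.7% held GGGCGG, 13.6% held TATAAA and 16.3% held AGGTCA. The GC content was 48.7% for Slc13a4, 61.0% for Col1a2 and 78.0% for Aldh1a2. These matches describe the letters only, and the arrays do not measure binding there.

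Other genes of the collagen fibril were mostly lower by small amounts. Of 36 measured partners and maturation enzymes of fibrillar collagen, 30 (83.3%) were lower and 6 higher, with a median of -0.13. By any size 47.4% of all measured genes were lower and 52.6% higher. At least 1.5-fold lower was 1 of them (2.78%) and higher 0, near the shares of 2.57% and 1.68% over all measured genes. That 1 was Pcolce, which encodes an enhancer of procollagen C-proteinase, with levels of 2.94 in Il18+/+ and 2.23 in Il18-/-, or 1.64-fold lower. Its relative Pcolce2 was 1.49-fold lower and Col15a1, a basement membrane zone collagen, was 1.40-fold lower at dim levels of -4.59 and -5.07. Col6a3, a chain of the microfibrillar collagen VI, went the other way with 1.40-fold higher, or 0.48 on the log2 scale. Col15a1 turned to 0.21 with no filter on dim probes, which adds dim probes of the gene. The list median ranged from -0.40 to -0.07 over the alternatives. The count at least 1.5-fold lower was 2 (5.56%) with quantile normalization and with loess, against 2.06% and 1.72% of all measured genes. It was 3 of 38 (7.89%) with no filter on dim probes, against 6.57%. With spike-in scaling 35 of the 36 were lower by any size and 8 by at least 1.5-fold. Under that scaling 9.74% of all measured genes were lower by 1.5-fold.

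Of the proteoglycan family beside Dcn, Lum and Fmod, 7 genes were measured, 4 of them lower and 3 higher, with 0 at 1.5-fold and a median of -0.09. Bgn, which encodes biglycan, the closest relative of decorin, was 1.32-fold lower, at levels of -1.89 and -2.29. Podn was 1.29-fold lower, Podnl1 was 1.11-fold lower and Omd, which encodes osteomodulin, was 1.17-fold higher. The list median lay above 0 in 2 of the 12 alternatives. Each of the 7 genes had 1 probe, so other probe summaries return the same median by construction. The deposited values, scaled again per array, do so too.

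A wider list of genes of meninges and fibroblasts had 53 measured members, 32 lower and 21 higher, with a median of -0.05. At least 1.5-fold lower were 4 (7.55%) and higher 1, against 2.57% and 1.68% of all measured genes. Igf2, the insulin-like growth factor gene that both choroid plexus and meninges express, was 2.94-fold lower, from -1.99 in Il18+/+ to -3.54 in Il18-/-. Igfbp2, which encodes a binding protein of that factor, was 2.10-fold lower, and Foxc2, a forkhead factor gene of mesenchyme, was 1.60-fold lower at dim levels of -3.01 and -3.69. Zic4, a zinc finger factor gene, was 1.80-fold higher. With normexp Igf2 was 1.95-fold and Foxc2 1.20-fold lower, and the stricter filter left both out. The count of 4 lower genes was 2 with loess, normexp, no background correction and the stricter filter. The shares of all measured genes lower by that size were then 1.72%, 0.68%, 0.93% and 1.32%. The count was 14 with spike-in scaling, where 9.74% of all measured genes were lower by 1.5-fold. The list median lay above 0 in 1 of the 12 alternatives, at 0.01.

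Retinoid genes other than Aldh1a2 showed no common direction, with 10 of 18 measured members lower, 8 higher and a median of -0.09. At least 1.5-fold lower were 2 (11.1%), against 2.57% of all measured genes. These were Ttr, the transthyretin gene that also stands among the choroid plexus markers, which went from 8.01 to 7.05, and Rdh5, a retinol dehydrogenase gene, which was 1.65-fold lower. Stra6, which encodes the receptor for retinol-binding protein, was 1.39-fold lower. Cyp26b1, which encodes an enzyme that breaks down retinoic acid, was 1.48-fold higher, from 1.99 to 2.56. The median lay above 0 in 3 of the 12 alternatives.

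Among 22 measured transporters related to Slc13a4 and Slc6a13 or known from brain barriers, 10 were lower and 12 higher, with a median of 0.01 that was below 0 in 5 of the 12 alternatives. Beyond 1.5-fold was 1 member (4.55%), and it was lower, against 2.57% of all measured genes lower by that size. This was Slc26a2, another sulfate transporter gene, 1.73-fold lower, from -3.75 in Il18+/+ to -4.53 in Il18-/-. It was 1.25-fold lower with normexp and 1.34-fold lower without background correction, and a stricter filter on dim probes left it out. Slc26a1, an anion exchanger gene that also carries sulfate, was 1.28-fold higher. Abca8a was 1.33-fold lower and Slc6a20a, which encodes a proline transporter, was 1.27-fold lower. Slc13a1 and Slc13a2 of the family of Slc13a4 were not well above background on at least 1 array.

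Vessel and border cells were compared because they lie beside meningeal fibroblasts. Of 17 measured pericyte and smooth muscle markers 12 were lower, and the median was -0.08. Past 1.5-fold lower were 2 of the 17 (11.8%), against 2.57% of all measured genes. The summed signal of the 17 markers was 25.2 times the 75th percentile in Il18+/+ and 24.2 in Il18-/-. Tbx2 was 1.61-fold lower, Abcc9, a pericyte potassium channel regulator gene, was 1.54-fold lower, and the smooth muscle genes Myh11 and Cnn1 were 1.45-fold and 1.42-fold lower. Counts past 1.5-fold were 0 with loess, normexp and no background correction. The count was 1 with the median of the spots, quantile normalization and the stricter filter. It was 6 with spike-in scaling, where 9.74% of all measured genes were lower by 1.5-fold. Des and Lmod1 were not well above background on at least 1 array.

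Of 17 brain endothelial markers 11 were lower and 0 reached 1.5-fold, with a median of -0.10 and summed signals of 61.4 and 60.0 times the 75th percentile. Slco1c1, a thyroid hormone transporter gene, was 1.30-fold lower, Eng 1.17-fold, Tie1 1.15-fold and Vwf, the von Willebrand factor gene, 1.13-fold. Of 12 measured border macrophage and blood markers 4 were lower and 8 higher, with a median of 0.12 that turned to -0.16 under spike-in scaling. Their summed signals were 28.1 times the 75th percentile in Il18+/+ and 31.3 times in Il18-/-. The haemoglobin genes Hba-a1 (levels of 3.94 and 4.12) and Hbb-bt (3.43 and 3.57) had the highest levels of the list. They weigh most in the sum, so it is no measure of border macrophages. S100a9 was 2.51-fold higher and S100a8 was 1.95-fold higher, both being genes of neutrophils. With normexp they were 1.77-fold and 1.31-fold higher, and the stricter filter left both out. The macrophage genes F13a1 and Cd209f were 1.17-fold higher and 1.32-fold lower, and Cd163 and Lyve1 were not well above background on at least 1 array. The part of these cell types in the values of the 10 genes was not tested.

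The neuronal lists checked for the tissue differed as follows. The hippocampal markers had a median of 0.03, which turned to -0.25 under spike-in scaling, with Iyd 1.81-fold higher at dim levels of -5.40 and -4.54, Lct 1.33-fold and Tdo2 1.29-fold higher, and Man1a 1.64-fold lower. With normexp Iyd was 1.18-fold higher and Man1a 1.40-fold lower. Of the 12 neocortical markers 10 were lower, with a median of -0.16, like that of the 10 meningeal fibroblast genes. Ccn2, which meningeal fibroblasts also express, was 1.44-fold lower, Etv1 1.23-fold, Rorb 1.21-fold and Fezf2 1.16-fold lower. For comparison, the summed signal of the 10 meningeal fibroblast genes was 23.3 times the 75th percentile in Il18+/+ and 17.2 times in Il18-/-. Such a sum weighs bright probes most. Slc13a4 and Mgp had the highest levels of the 10 in Il18+/+, at 2.67 and 2.24, so it is no measure of the amount of these cells.

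**Figure D4:**
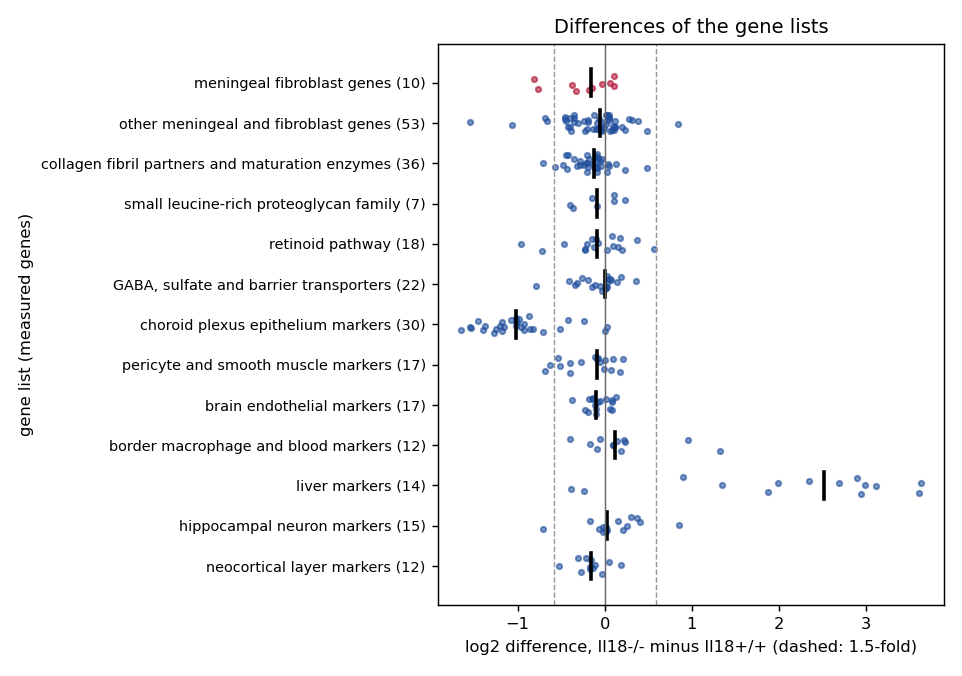
Log2 differences, Il18-/- minus Il18+/+, of the measured genes of each list (points, number of genes in brackets) with the list median as a black bar and 1.5-fold as dashed lines. The 10 meningeal fibroblast genes (top, red) have a median of -0.16, as do the neocortical layer markers. The median is -1.02 for the choroid plexus markers and -0.08 for pericyte and smooth muscle markers.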

How the data were processed

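Per the labels, RNA pools of 7 mice were labelled with Cy3, and 1 Agilent array was run for each genotype. Per the file headers, Feature Extraction (version 10.10.1.1, also in the submitters' processing notes) made the deposited intensity, with background subtraction and spatial detrending inside an array but no scaling between the 2. In the authors' value table the same intensity is multiplied by 2.05 on the Il18+/+ array and by 1.92 on the Il18-/- array (column medians 151.5 and 139.5). That table is linear and uncentred, and the basis of the factors is unknown.

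Control spots (3671 of 62976) and outlier spots (124 on the Il18+/+ array, 177 on the Il18-/- array) were left out. Levels are log2 intensity minus the array's 75th percentile, 694.8 for Il18+/+ and 709.9 for Il18-/-. Spots of a probe, then probes of a gene, were averaged. Accessions without versions were matched to RefSeq of GRCm38.p6, which named 27234 probes and left 28441 unnamed. A gene counted as measured with at least 1 probe that rose well over background in both genotypes, as 67.2% and 65.4% of probes were on the Il18+/+ and Il18-/- arrays. Repeated spots had a median SD of 0.07 for the difference, over 189 probes with at least 10 spots.

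The 10 genes and the 12 other lists were chosen with earlier results of these data known. Named were the 10 genes, Il18, up to 4 genes per list with the largest difference and all probes on 1 side, and genes beside the 10 on the chromosome. Trf, Fga, Enpp2, Hba-a1, Hbb-bt and the genes not well above background were named after their values were seen. The alternatives were other scalings, background corrections, filters, probe summaries and the deposited values, the last scaled again per array as in the main setting. The calculations were tested on simulated data. Python 3.11.15 with pandas 2.3.3, numpy 2.4.6 and matplotlib 3.10.9, and R 4.3.3 with limma 3.58.1 were used.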

Additional observations from a re-analysis of the deposited data

How the results depend on the processing

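Of 12 alternatives, 6 leave these 10 genes at the same values by construction. Each gene has 1 probe on 1 spot that passes every filter, and the deposited values differ by a constant. Col3a1 and Fmod pass at dim intensities, 93 and 166 in Il18+/+. Of the 6 that could move them, 5 gave 2 genes at least 1.5-fold lower and scaling to spike-in controls gave 4. At least 1.5-fold higher were 0. Without that scaling Mgp ranged from -0.86 to -0.76 and Slc13a4 from -0.82 to -0.71. Scaling to the 10 spike-in probes, whose RNA is added in fixed amounts, lowers every gene by 0.28, and gave Mgp -1.09, Slc13a4 -1.05 and a median of -0.44 over the 10 genes. The other alternatives gave medians of -0.18 to -0.10. The background itself moved more. Over all genes 405 were lower and 264 higher by 1.5-fold in the main setting, 317 and 320 with the median of the spots, 324 and 311 with quantile normalization, 271 and 339 with loess, 1532 and 133 with spike-in scaling, 107 and 113 with normexp on the median signal, 147 and 132 without background correction, 179 and 114 with a stricter filter, and 1357 and 815 with no filter on dim probes. Background correction was tried on the median spot signal, and normexp added an offset of 50 intensity units, which shrinks the folds of dim genes. Fmod and Aldh1a2 changed sign between alternatives, and Col3a1 and Slc6a13 did so under spike-in scaling only, as did Omd and F13a1, both to -0.05. The medians of the other lists are counted over all 12 alternatives, of which the deposited values, once scaled again, return the main median by construction. No paired analysis was possible because each genotype had 1 pool.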
